A study of Mus musculus with 6 samples.

Results

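The Lin28 paralogs and 8 genes that act with them in the oncofetal program repressed by the let-7 microRNAs were followed in Mll-AF9 leukemia with and without the ribosomal protein Rpl22. The 10 genes were chosen by name, as Lin28a, Lin28b, Igf2bp1, Igf2bp2, Igf2bp3, Hmga1, Hmga2, Trim71, Dis3l2 and Arid3a, and all were found among the 29374 genes with any estimated read. The study sequenced poly(A) RNA of CD11b+Gr1+ splenocytes, sorted from mice with leukemia, in 3 Rpl22+/+ and 3 Rpl22-/- libraries. Both groups carried Mll-AF9, a fusion oncogene placed in the Mll locus, which is active in many cells besides myeloid ones, and Rpl22-/- mice lacked Rpl22 in the germline, so in every tissue. The study's methods describe young adult mice backcrossed to C57BL/6, and the age at which the leukemias were taken is not given in the sources used here. Its text names 1 mouse per genotype for the leukemia explants, and from the labels it is unclear if replicates were different animals. The p-values therefore measure the spread between libraries, which may be technical. If each genotype was 1 mouse, a difference between genotypes cannot be told apart from one between individual tumors.

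Lin28a and Lin28b are RNA-binding proteins with a cold-shock domain and CCHC zinc knuckles. They bind the loop of let-7 precursors, often at the letters GGAG, and block maturation of let-7, in part through uridylation of the precursor by Tut4 or Tut7, after which Dis3l2 degrades it. Mature let-7 in turn represses messages with a match to its seed, including those of the Lin28 genes themselves. Lin28b is known for its part in fetal blood formation, whereas Lin28a is best known from pluripotent cells. These libraries hold poly(A) RNA, and mature let-7 was not measured in them.

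The sequences below show what joins the genes. In the RefSeq tables for GRCm38.p6, 13 let-7 family genes gave 11 mature names, 10 of them with the same seed. These 10 differ in other bases, and the seed, bases 2 to 8 from the 5′ end, is in capitals. Let-7j is shown because its seed ends in another base.
let-7a-5p: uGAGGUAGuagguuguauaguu
let-7b-5p: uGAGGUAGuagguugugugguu
let-7g-5p: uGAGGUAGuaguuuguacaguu
miR-98-5p: uGAGGUAGuaaguuguauuguu
let-7j: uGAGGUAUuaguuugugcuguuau

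Of 11 hairpins with both arms in the table, 8 had GGAG in the stretch between the arms. The loops of let-7a-1 and let-7g are given with GGAG in capitals, beside that of let-7b, which lacks it.
let-7a-1 loop: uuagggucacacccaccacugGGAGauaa
let-7g loop: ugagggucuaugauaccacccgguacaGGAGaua
let-7b loop: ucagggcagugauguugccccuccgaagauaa

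On the message strand, a match to the seed was taken as CTACCTC or TACCTCA, 7 bases, or CTACCTCA, 8 bases, in the 3′ UTR of the main coding transcript of GENCODE vM21. Of the 10 genes, 9 held at least 1 match and 8 held one of 8 bases, against 13.8% and 2.84% of 20506 genes with a 3′ UTR of at least 50 bases. These genes are known as a let-7 program, so that share is a description of how they were chosen. Hmga2 held 7 matches, Trim71 6, Lin28b and Igf2bp1 5 each, Arid3a 4, Lin28a and Igf2bp2 2 each, Igf2bp3 and Hmga1 1 each, and Dis3l2, which acts in the pathway and is not known as a target, held 0. For Lin28a, Lin28b, Igf2bp3, Arid3a and Hmga2 every match of 8 bases is shown, and for Hmga1 its match of 7 bases, as examples from genes described below. The match is in capitals, with its first base, counted from the start of the 3′ UTR, at 909 and 1547 in Lin28a, 36 in Lin28b, 548 in Igf2bp3, 1974 in Arid3a, 801 in Hmga1 and 21 in Hmga2.
Lin28a first site: cacagcctgttgaaCTACCTCAtttt
Lin28a second site: agatcgccacaaacCTACCTCActgt
Lin28b: cccgggcgggaagtCTACCTCAtgca
Igf2bp3: gcatttttactcaaCTACCTCAggta
Arid3a: aggcaagtttctttCTACCTCAggtc
Hmga1: cctctgttcacaaaCTACCTCtgga
Hmga2: ccgacattcaatttCTACCTCAgcat

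The libraries held 35828500 to 102866127 estimated reads, with Rpl22-/- replicate 1 the shallowest. Rpl22, the gene deleted, was at 148, 235 and 152 CPM (read counts brought to equal library size after TMM scaling) in Rpl22+/+ and at 58.3, 89.9 and 73.5 CPM in Rpl22-/-. The groups did not overlap, but the message was not absent in Rpl22-/-, and reads of the deleted part were not examined, so the sum over the gene does not check the deletion itself. Rpl22+/+ replicate 2 stood apart, with correlations of log2 CPM across genes of 0.926 and 0.934 with the other libraries of its group, which correlated at 0.992 with each other. The markers of the sorted cells were present in every library, at summed levels of 34940 to 44964 CPM in Rpl22+/+ and 41344 to 52390 CPM in Rpl22-/-. Of these 12 markers 2 were higher in Rpl22-/-, the granule genes Mpo (log2 fold change 2.99) and Elane (3.48), and 4 were lower, including Itgam, which encodes CD11b (-1.02), and Ly6g, which encodes a Gr1 antigen (-3.49). Erythroid markers summed to 57.9 to 89.8 CPM in Rpl22+/+ and 382 to 722 CPM in Rpl22-/-, with 6 of 8 higher. T-cell markers summed to 76.6 to 111 and 68.2 to 89.6 CPM, with 6 of 8 lower and 1 higher, and B-cell markers to 617 to 777 and 385 to 592 CPM, with 1 of 8 lower. Megakaryocyte markers summed to 4.42 to 6.24 and 13.3 to 13.7 CPM, with 1 of 8 higher, Vwf, and stromal and endothelial markers to 59.9 to 71.5 and 74.6 to 95.3 CPM, with 1 of 8 higher, Kdr. The part of these shifts in the results on the Lin28 and let-7 genes was not tested, and in bulk RNA fewer cells of a type and less RNA per cell cannot be told apart.

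Of the 10 genes, 7 passed the filter on low counts and entered the edgeR quasi-likelihood fit of 16656 genes, in which a call is a Benjamini-Hochberg adjusted p-value under 0.05. In the Rpl22-/- libraries Lin28b was the gene called higher, 1 of 7, while Lin28a, Igf2bp3 and Arid3a, 3 of 7, were called lower. Among all genes tested, 13.7% were called higher and 13.8% lower. Lin28b entered the test through its Rpl22-/- libraries alone, so its call is no result about the share of members that were higher. Hmga1, Igf2bp2 and Dis3l2 did not pass, and Igf2bp1, Hmga2 and Trim71 had too few reads. The groups did not overlap in CPM for 4 of the 7 genes, and the same held for 46.1% of all genes tested, so that separation of the groups was common in these data. The plot of each gene's level by library shows the spread behind these calls.

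**Figure D1:**
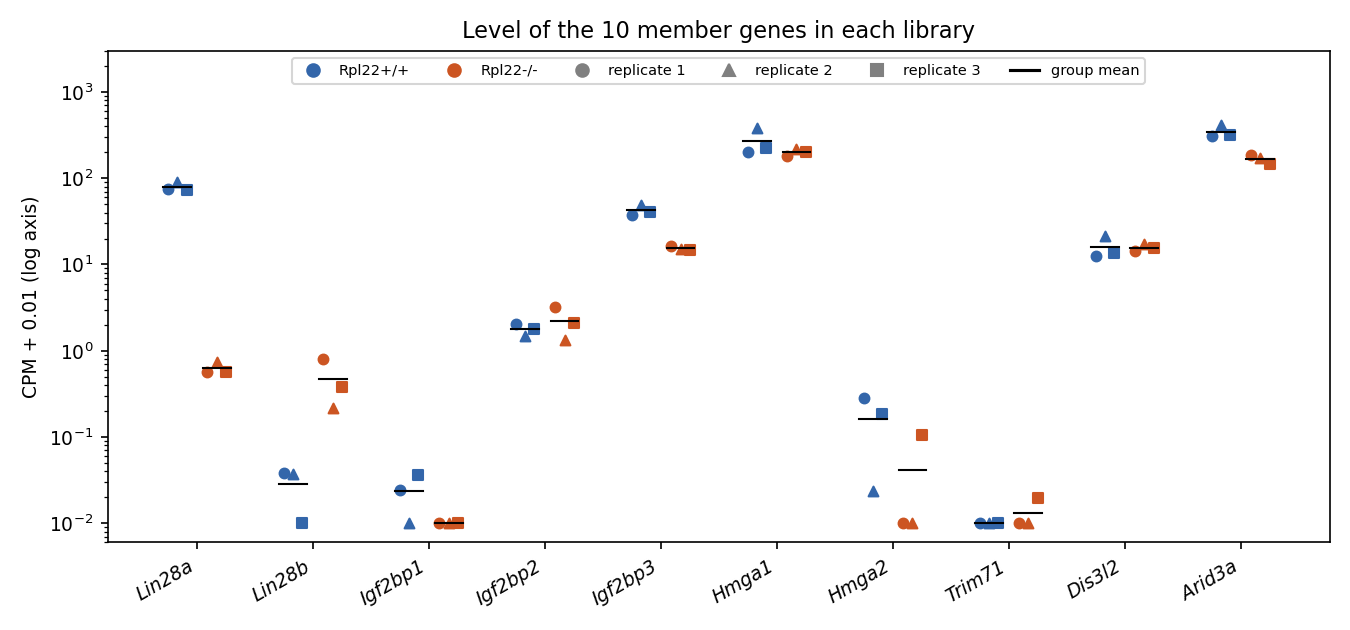
The level of each of the 10 genes in each library, in CPM + 0.01 on a log axis, with blue for Rpl22+/+, orange for Rpl22-/-, a symbol per replicate number and a black line at each group mean. Lin28a lies at 73.1 to 90.1 CPM in Rpl22+/+ and under 1 CPM in Rpl22-/-, and Lin28b lies under 0.03 CPM in Rpl22+/+ and at 0.21 to 0.802 CPM in Rpl22-/-.

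Lin28a (ENSMUSG00000050966, chromosome 4, 133730641 to 133746152, minus strand, GRCm39) was the Lin28 gene expressed in the Rpl22+/+ libraries. It stood at 75.9, 90.1 and 73.1 CPM in the Rpl22+/+ libraries, from 5326, 6671 and 5474 reads, and at 0.561, 0.739 and 0.557 CPM in the Rpl22-/- libraries, from 21, 74 and 59 reads. Every Rpl22-/- library was thus far below every Rpl22+/+ library, and the spread within a genotype was small beside the gap between them. The decrease was 127-fold (log2 fold change -6.99 ± 0.21, SE; adjusted p = 1.8e-05, edgeR). It passed under all 14 alternatives, with log2 fold changes from -7.16 to -5.30. Markers of pluripotent and germ cells, where Lin28a is best known, were scarce in both genotypes. The 10 such markers summed to 0.0945 to 0.470 CPM in Rpl22+/+ and 0.340 to 0.374 CPM in Rpl22-/-, none passed the filter on low counts, and Sox2 and Zfp42 had 0 reads in all libraries.

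Lin28a had 2 well covered transcripts. Lin28a-201, the full coding transcript of 3505 bases, had 5051, 6282 and 5129 reads in Rpl22+/+ and 20, 71 and 59 in Rpl22-/- (adjusted p = 0.000645, edgeR over transcripts). A short coding model of 394 bases, Lin28a-202, had 273, 388 and 343 reads against 1, 3 and 0 (adjusted p = 0.00723, edgeR), and it passed the filter on low counts through Rpl22+/+ alone, so its call adds nothing to that of the gene. Because TPM scales for length, the short model took 45.3% to 51.9% of the gene's TPM in Rpl22+/+ from a small part of its reads.

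Lin28b (ENSMUSG00000063804, chromosome 10, 45252716 to 45362491, minus strand) moved the opposite way but at a very low level. Its reads numbered 2, 2 and 0 in Rpl22+/+ and 30, 21 and 39 in Rpl22-/-. In CPM these were 0.0285, 0.0270 and 0 against 0.802, 0.210 and 0.368, so the groups did not overlap, while the Rpl22-/- libraries differed among themselves. The fitted log2 fold change was 4.49 ± 0.89 (SE; adjusted p = 0.0116, edgeR). Leaving out Rpl22-/- replicate 1, the shallowest and highest library, lowered it to 3.88, which still passed (adjusted p = 0.0348, edgeR). As pooled reads, 4 against 90, the ratio of Rpl22-/- to Rpl22+/+ was 20.25, with an exact 95% interval of 7.64 to 75.9 that covers counting error only. Lin28b passed the filter on low counts through its Rpl22-/- libraries alone, so it could enter the test only by differing. On TPM the call was lost, at log2(TPM + 1) with a difference of 0.21 (adjusted p = 0.128, limma) and at log2(TPM + 0.1) with 1.24 (adjusted p = 0.054, limma). Lin28b was at most 0.338 TPM in any library, so the added 1 or 0.1 shrank the difference, and neither fit can decide the call. The full coding transcript Lin28b-201, of 5402 bases, held 18, 17 and 30 of the Rpl22-/- reads and all reads of Rpl22+/+. A noncoding model, Lin28b-202, had 8, 4 and 7 reads in Rpl22-/- and 0 in each Rpl22+/+ library. Tested as a transcript, Lin28b-201 had a log2 fold change of 3.86 ± 0.99 (SE) and did not pass (adjusted p = 0.083, edgeR).

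Scaled for length, Lin28a was far the higher paralog in Rpl22+/+. Lin28a stood at 52.3 ± 2.21 TPM in Rpl22+/+ (SD, n = 3), and Lin28b at 0.00411 ± 0.00369 TPM. In Rpl22-/- Lin28a was at 0.445, 0.415 and 0.215 TPM and Lin28b at 0.338, 0.0558 and 0.117 TPM. In Rpl22-/- the ranges of the paralogs overlapped, and in replicate 1 the order depended on the scale. There Lin28b was the higher in reads, 30 against 21, and in CPM, and 1 read on the short Lin28a-202 gave 0.230 of the 0.445 TPM of Lin28a. The sum of both genes fell from 52.3 ± 2.20 to 0.529 ± 0.231 TPM (SD, n = 3 each), so that total Lin28 message per length was lower in Rpl22-/- libraries.

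The window from 250 bases before to 50 after the start of each Lin28 gene is printed, from RefSeq on GRCm38.p6, because the paralogs moved in opposite directions. Lin28a, chr4:134018767-134019066, minus strand, had 63.3% GC and 10 CpG. Lin28b, chr10:45470152-45470451, minus strand, had 39% GC and 8 CpG, against a median of 52.7% and 7 over 32851 windows of 300 bases. The letters CACGTG, the canonical E-box read alike on both strands, occurred once in the Lin28b window, where they are in capitals, and not in that of Lin28a. They occurred 2 times in the window of Igf2bp3, and 7.15% of all windows held them. Such a match is only a description of these letters.
Lin28a: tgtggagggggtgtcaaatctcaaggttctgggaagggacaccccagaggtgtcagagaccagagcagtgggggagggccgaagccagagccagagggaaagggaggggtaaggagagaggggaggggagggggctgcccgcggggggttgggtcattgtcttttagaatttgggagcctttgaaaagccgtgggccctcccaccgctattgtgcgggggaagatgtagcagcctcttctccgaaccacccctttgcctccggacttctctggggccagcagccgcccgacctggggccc
Lin28b: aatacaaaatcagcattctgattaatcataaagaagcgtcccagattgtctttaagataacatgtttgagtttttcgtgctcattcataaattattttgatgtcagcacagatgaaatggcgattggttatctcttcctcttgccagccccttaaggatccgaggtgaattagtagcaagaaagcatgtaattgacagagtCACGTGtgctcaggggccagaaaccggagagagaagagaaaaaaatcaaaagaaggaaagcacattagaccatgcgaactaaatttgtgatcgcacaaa

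Neighboring genes of Lin28a had log2 fold changes of both signs. Of 6 protein-coding genes within 100 kb of it by the positions of the deposited table, 2 passed the test. Of all genes tested, 13.7% were called higher and 13.8% lower, so this count is only a description. Hmgn2, which encodes a nucleosome-binding protein, rose from 1424 ± 200 to 2755 ± 140 CPM (SD, n = 3 each; log2 fold change 0.95, adjusted p = 0.00686, edgeR). Zfp683, a transcription factor of resident lymphocytes, fell from 0.248 ± 0.069 to 0.0308 ± 0.0197 CPM (adjusted p = 0.00767, edgeR), a log2 fold change of -3.16, but it passed the filter on low counts through Rpl22+/+ alone. The other 4, Dhdds, Crybg2, Cd52 and Ubxn11, had log2 fold changes of 0.50, -0.28, -0.58 and 0.56 and did not pass. Hace1, the 1 coding neighbor within 100 kb of Lin28b, had a log2 fold change of -0.59 (adjusted p = 0.0776, edgeR). Without Rpl22+/+ replicate 2, Dhdds (0.62, adjusted p = 0.00677), Cd52 (-0.40, adjusted p = 0.0254) and Hace1 (-0.82, adjusted p = 0.00306) passed as well, by edgeR. More genes were called overall in that fit, 3540 higher and 3311 lower of 17127. Lin28a lies on the same chromosome as Rpl22, 18.7 Mb away.

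The Igf2bp genes encode RNA-binding proteins that stabilize messages such as those of Igf2 and Myc, and are typical of fetal tissue. Igf2bp3 (ENSMUSG00000029814, chromosome 6, 49062157 to 49191891), which is also known as a dependency of MLL-rearranged leukemia, was the one with a sizeable level here. It was measured at 37.8, 49.5 and 40.1 CPM in Rpl22+/+ and 16.4, 14.9 and 14.7 CPM in Rpl22-/-. The groups did not overlap, and the Rpl22-/- libraries lay close together. The decrease was 2.77-fold (log2 fold change -1.47 ± 0.15, SE; adjusted p = 0.000935, edgeR) and passed under all 14 alternatives. Nearly all of its reads fell on the coding transcript Igf2bp3-201, with 2559, 3613 and 2892 reads against 567, 1468 and 1484 (log2 fold change -1.57, adjusted p = 0.0144, edgeR).

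Igf2bp2 (ENSMUSG00000033581, chromosome 16, 21877759 to 21982049) was low in all libraries, at 2.02, 1.47 and 1.78 CPM in Rpl22+/+ and 3.18, 1.32 and 2.12 CPM in Rpl22-/-. The groups overlapped, and the difference did not pass (log2 fold change 0.32 ± 0.36, SE; adjusted p = 0.571, edgeR). Between 92.4% and 100% of its reads in a library were assigned to Igf2bp2-207, a model annotated as retained intron, while the coding Igf2bp2-201 had at most 4 reads. Of the 3267 bases of that model, 99.8% lie in exons of Igf2bp2-201, and the 8 others are in its first exon. By that model the reads were exonic, and the assignment does not say which transcript they came from. Igf2bp1 had 1, 0 and 2 reads in Rpl22+/+ and 0 in each Rpl22-/- library, which allows up to 0.0123 CPM over the Rpl22-/- libraries together. As sums of the family, the 3 genes were at 13.8 ± 0.34 TPM in Rpl22+/+ and 6.51 ± 1.60 TPM in Rpl22-/- (SD, n = 3 each), most of it Igf2bp3.

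Arid3a (ENSMUSG00000019564, chromosome 10, 79762877 to 79790852, plus strand), a DNA-binding protein and let-7 target of fetal B-cell development, was second to Hmga1 in TPM, although above it in CPM in every Rpl22+/+ library. It stood at 307, 414 and 318 CPM in Rpl22+/+ and 186, 172 and 146 CPM in Rpl22-/-. All Rpl22-/- libraries were below all Rpl22+/+ libraries, by 2.06-fold on average (log2 fold change -1.05 ± 0.18, SE; adjusted p = 0.00619, edgeR). Without Rpl22+/+ replicate 2 the log2 fold change was -0.94 and still passed, whereas a test against a minimum fold of 2 was not passed (adjusted p = 0.927, edgeR). B-cell markers, given above, were at lower sums in Rpl22-/- as well, and Pax5 was the 1 of 8 that passed (log2 fold change -0.81, adjusted p = 0.0232, edgeR), a call lost with any library but Rpl22+/+ replicate 2 left out. The cells had been sorted on CD11b and Gr1, a gate that would remove B cells, and the part of B cells in the Arid3a values was not tested. Arid3b, of the same family, was also lower, at 78.5 ± 1.37 against 43.6 ± 7.30 CPM (SD, n = 3 each; log2 fold change -0.85, adjusted p = 0.00762, edgeR).

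Arid3a had 4 well covered transcripts, 3 of them coding. Arid3a-202 (log2 fold change -1.12, adjusted p = 0.0406, edgeR) and the short Arid3a-204 (-1.90, adjusted p = 0.0275) passed, and the most abundant, Arid3a-201, had a similar difference without passing (-1.04 ± 0.24, SE; adjusted p = 0.0598). With the replicate number as a block the calls of Arid3a-202 (adjusted p = 0.056, edgeR) and Arid3a-204 (adjusted p = 0.0626, edgeR) were lost. Arid3a-205, a noncoding model, had 543, 1279 and 1057 reads in Rpl22+/+ and 0, 153 and 187 in Rpl22-/- (adjusted p = 0.168, edgeR). As a share of the gene's TPM, Arid3a-201 held 45.1% to 48.7% in Rpl22+/+ and 52.3% to 58.1% in Rpl22-/-.

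**Figure D2:**
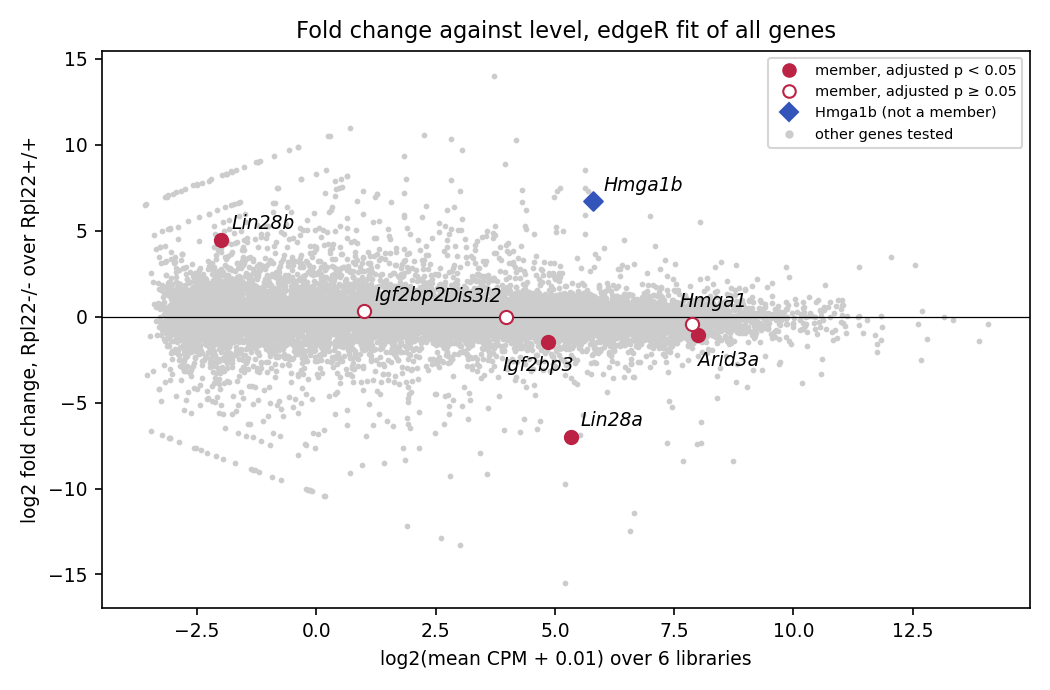
The log2 fold change of Rpl22-/- over Rpl22+/+ against log2(mean CPM + 0.01) for all 16656 genes tested, in grey, with the 7 tested members as circles, filled where the adjusted p-value was under 0.05, and Hmga1b as a diamond. Lin28a (-6.99) lies far below zero at a moderate level, Lin28b (4.49) is near the left edge among genes with few reads, and Igf2bp3 (-1.47) and Arid3a (-1.05) lie below the line.

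Hmga1 (ENSMUSG00000046711, chromosome 17, 27775471 to 27782648, plus strand) and Hmga2 encode architectural proteins that bind AT-rich DNA. Hmga1 was the most abundant of the 10 genes, at 221 ± 44.4 TPM in Rpl22+/+ and 185 ± 5.65 TPM in Rpl22-/- (SD, n = 3 each). Its CPM values were 203, 382 and 224 against 182, 219 and 199, so the groups overlapped, with Rpl22+/+ replicate 2 the highest. The difference did not pass (log2 fold change -0.43 ± 0.26, SE; adjusted p = 0.273, edgeR). Hmga2 had 19, 1 and 13 reads in Rpl22+/+ and 0, 0 and 10 in Rpl22-/-, too few for a test, and the libraries of both groups overlapped.

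The Hmga1 value is uncertain, because a near-identical copy took reads mostly in Rpl22-/-. Hmga1b, a single-exon gene on chromosome 11 (120653620 to 120655245), matches Hmga1-201 at 99.8% of 1563 aligned bases, with 3 mismatches. The alignment also has 33 gap bases, which that share leaves out. Hmga1b holds the same let-7 site as Hmga1, printed above. It was assigned 39, 116 and 74 reads in Rpl22+/+ and 3779, 11811 and 11991 in Rpl22-/-. Its share of the reads of both genes was 0.273% to 0.443% in Rpl22+/+ and 35.0% to 36.3% in Rpl22-/-, nearly constant within a genotype. In the test Hmga1b was higher in Rpl22-/- (log2 fold change 6.73 ± 0.41, SE; adjusted p = 0.000133, edgeR). With the genes summed, an alternative chosen after seeing the data, the Rpl22+/+ libraries stood at 204, 384 and 225 CPM and the Rpl22-/- libraries at 283, 337 and 312 CPM. The direction then turned and the difference again did not pass (log2 fold change 0.20 ± 0.26, SE; adjusted p = 0.631, edgeR). Estimated counts of such a pair cannot say which locus the RNA came from.

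Reads assigned to transcripts within Hmga1 differed between genotypes too, but these transcripts match Hmga1b about as closely over their aligned bases as Hmga1-201 does. The match to Hmga1b was 99.8% for Hmga1-216, Hmga1-204 and Hmga1-206 and 100% of 550 aligned bases for Hmga1-215, so their values carry the same uncertainty. Gap bases, not in these shares, numbered 0 for Hmga1-216, 33 for Hmga1-204, 38 for Hmga1-206 and 41 for Hmga1-215. Hmga1-216 had 3246, 6686 and 3733 reads in Rpl22+/+ and 0, 0 and 110 in Rpl22-/-, though the test over transcripts was not passed (log2 fold change -7.44 ± 1.66, SE; adjusted p = 0.0555, edgeR). Hmga1-206 had 324, 484 and 217 reads against 8, 32 and 9 (adjusted p = 0.0155, edgeR). Conversely, Hmga1-204 was listed at 0 in each Rpl22+/+ library and at 246, 657 and 949 reads in Rpl22-/- (adjusted p = 0.00385, edgeR). Hmga1-215 was likewise at 0 in each Rpl22+/+ library, against 79, 327 and 257 reads (adjusted p = 0.00746, edgeR). Both passed the filter on low counts through Rpl22-/- alone, so they could enter the test only by differing. The main transcript, Hmga1-201, had 7209, 13300 and 8829 reads against 4901, 15590 and 13951 (adjusted p = 0.986, edgeR), with a log2 fold change of -0.02 ± 0.31 (SE). The stacked plot of transcript levels sets these transcripts beside the copy.

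**Figure D3:**
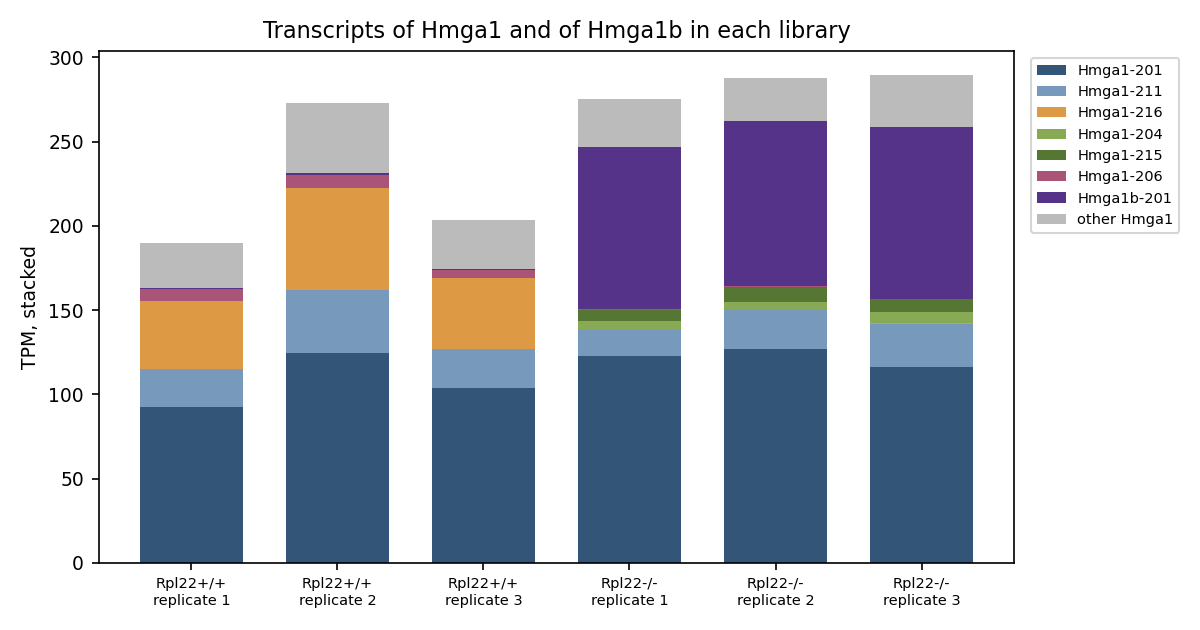
Stacked TPM of the transcripts of Hmga1 and of Hmga1b in each of the 6 libraries, with the less abundant Hmga1 transcripts together in grey. Hmga1-216, in orange, is seen in the 3 Rpl22+/+ bars (mean 47.7 TPM) and Hmga1b-201, in purple, in the 3 Rpl22-/- bars (mean 98.8 TPM), while Hmga1-201 at the base of each bar is at 107 TPM and 122 TPM on average.

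Over the members, 23 transcripts were well covered, with a mean of at least 50 reads, and 8 of them passed the test, 2 higher and 6 lower in Rpl22-/-. Both that were higher are Hmga1-204 and Hmga1-215, with no reads in Rpl22+/+ and near-identical to Hmga1b, so that their count is no result about the members. The 6 that were lower comprise 2 of Lin28a, 2 of Arid3a, 1 of Igf2bp3 and Hmga1-206. Of these Lin28a-202 entered the test through Rpl22+/+ alone and Hmga1-206 is near-identical to Hmga1b, so this count too is only a description. Among 52589 transcripts tested, 2.65% were called higher and 3.15% lower, and the DESeq2 test called 12 of the 23. With the replicate number as a block, 5 of the 23 passed, and Hmga1-215 (adjusted p = 0.0667, edgeR) was lost beside the transcripts of Arid3a.

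Trim71 was all but undetected, and Dis3l2 was at a moderate level in both genotypes. Trim71, a ubiquitin ligase and RNA repressor of early embryos that is among the best known let-7 targets, had 1 read in all, in Rpl22-/- replicate 3. A count of 0 over the Rpl22+/+ libraries allows up to 0.0137 CPM. Dis3l2 (ENSMUSG00000053333, chromosome 1, 86631530 to 86977817), the exonuclease that removes uridylated let-7 precursors, was at 12.4, 21.5 and 13.8 CPM in Rpl22+/+ and 14.3, 17.4 and 15.4 CPM in Rpl22-/-. The groups overlapped and the difference did not pass (log2 fold change -0.02 ± 0.23, SE; adjusted p = 0.969, edgeR). Its direction turned in 8 of 14 alternatives, and none of its 3 well covered transcripts passed.

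Ordered by TPM, the Rpl22+/+ libraries had Hmga1 at 221 ± 44.4, Arid3a at 103 ± 5.35, Lin28a at 52.3 ± 2.21, Igf2bp3 at 13.1 ± 0.19, Dis3l2 at 6.44 ± 0.94 and Igf2bp2 at 0.695 ± 0.18 TPM (SD, n = 3). These 6 were separated by more than the spread of their neighbors. In Rpl22-/- the order was Hmga1, Arid3a at 48.1 ± 6.26, Dis3l2 at 6.96 ± 0.26, Igf2bp3 at 5.49 ± 1.09, Igf2bp2 at 1.02 ± 0.52, Lin28a at 0.358 ± 0.125 and Lin28b at 0.171 ± 0.149 TPM. Lin28a was behind Arid3a in Rpl22+/+ and behind Igf2bp2 in Rpl22-/-, and its range in Rpl22-/- overlapped that of Lin28b but not that of Igf2bp2, whose lowest library was at 0.543 TPM.

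Around Lin28 lies the machinery that makes, tails and uses let-7. Of 30 genes listed for it, all of them tested, 5 were higher and 3 lower in Rpl22-/-. Their median log2 fold change was 0.11, against 0.07 for all genes, of which 13.7% were called higher and 13.8% lower. The count of the list was thus near that background. Dgcr8, partner of Drosha in the first cleavage, was among those higher (45.5 ± 4.78 to 65.7 ± 8.46 CPM, SD, n = 3 each; log2 fold change 0.53, adjusted p = 0.0428, edgeR). The 3 with the largest increase were Zcchc3 (log2 fold change 2.82, adjusted p = 0.000332, edgeR), Syncrip, an hnRNP (0.92, adjusted p = 0.00968), and Msi2, a translational regulator that sustains hematopoietic stem cells (0.76, adjusted p = 0.0124). Zcchc3 is an RNA-binding zinc finger protein known for another role, as a cofactor of nucleic acid sensing, so its place in the list is uncertain. Those that fell were Msi1, a neural relative of Msi2 reported to work with Lin28 on let-7 precursors (from 2.23 ± 0.54 to 0.407 ± 0.056 CPM, SD, n = 3 each; log2 fold change -2.43, adjusted p = 0.00171, edgeR), Ago2, the slicing Argonaute (-0.85, adjusted p = 0.00502), and Prkra, a partner of Dicer (-0.49, adjusted p = 0.0354).

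The enzymes that tail and cut let-7 precursors did not pass with all libraries in the fit. Tut4 was at 18.5 ± 12.2 CPM in Rpl22+/+ and 29.7 ± 5.68 in Rpl22-/- (SD, n = 3 each; log2 fold change 0.68 ± 0.59, SE), and Tut7, the more abundant in CPM, at 231 ± 77.3 and 163 ± 25.1 CPM (log2 fold change -0.50 ± 0.28, SE). Dicer1 (0.22 ± 0.19) and Drosha (0.06 ± 0.16) had small log2 fold changes. Tut4 was at 4.48 CPM in Rpl22+/+ replicate 2, the lowest library, and without it the log2 fold change was 0.17, whereas that of Tut7 was -0.81 and passed (adjusted p = 0.00432, edgeR). The calls of Dgcr8, Prkra, Msi2 and Syncrip were lost with at least 1 library left out. Without Rpl22+/+ replicate 2, 16 of the 30 genes passed, 8 in each direction. Only 4 passed when Rpl22+/+ replicate 3 was left out, and 5 when Rpl22+/+ replicate 1 was. Calls over all genes moved the same way, so this swing is not particular to the list. The fit with 16 called 3540 genes higher and 3311 lower of 17127. That with 4 called 1175 and 1447 of 17381, and that with 5 called 1396 and 1702 of 17320.

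Genes whose introns or exons hold let-7 hairpins gave little information. Huwe1, host of let-7f-2 and miR-98, had a log2 difference of 0.29 ± 0.33 (SE; adjusted p = 0.589, edgeR) and Wdr82, host of let-7g, one of 0.53 ± 0.17 (SE; adjusted p = 0.0623, edgeR), so neither passed, though Wdr82 did without Rpl22+/+ replicate 2 (0.65, adjusted p = 0.00888, edgeR). These were the 2 tested of 17 in the list. Of 12 hairpin genes, 11 were listed at 0 in all libraries.

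Outside the members, 34 genes widely cited as let-7 targets gave 6 higher and 10 lower of 32 tested, with a median log2 fold change of -0.35, beside 13.7% higher and 13.8% lower of all genes. The largest increases were those of Cdk6, a G1 kinase (304 ± 97.8 to 1193 ± 472 CPM, SD, n = 3 each; log2 fold change 1.97, adjusted p = 0.00864, edgeR), Myc (36.1 ± 7.59 to 125 ± 6.89 CPM; 1.79, adjusted p = 0.000804) and Ccnd1, which encodes cyclin D1 (4.93 ± 1.58 to 15.9 ± 3.47 CPM; 1.70, adjusted p = 0.00594). The largest decreases were those of Mycn (0.753 ± 0.221 to 0.0220 ± 0.0110 CPM; -5.07, adjusted p = 0.00107), Thbs1, a secreted matrix protein (27.2 ± 5.77 to 1.06 ± 1.45 CPM; -4.61, adjusted p = 0.0179), and Itgb3, a platelet and myeloid integrin (51.5 ± 7.50 to 10.7 ± 0.458 CPM; -2.26, adjusted p = 0.000188), all by edgeR. Mycn, with 165 reads in Rpl22+/+ and 5 in Rpl22-/-, passed the filter on low counts through Rpl22+/+ alone. The call of Thbs1 was lost without Rpl22+/+ replicate 3 or Rpl22-/- replicate 2, and without Rpl22-/- replicate 3 its log2 fold change was -6.70. Nras, a small GTPase and classical target of let-7, was lower (-0.67, adjusted p = 0.008, edgeR), and Hras (-0.04) did not pass. Leaving out Rpl22+/+ replicate 3 gave 10 genes past the test, and leaving out Rpl22+/+ replicate 2 gave 22. Over all genes the first of these fits called 1175 higher and 1447 lower of 17381, and the other 3540 and 3311 of 17127.

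Genes were also grouped by the seed alone. The median log2 fold change was 0.05 for 11167 tested genes with no match of 7 or 8 bases in the 3′ UTR, -0.04 for 1991 with at least 1, and -0.04 for 427 with one of 8 bases, beside 0.03 for all 13158. With 2 or more matches of 8 bases, as in Lin28a, it was -0.24 over 18 genes. Of genes with no match 15% were called lower and 14.6% higher, and of those with at least 1 match 18.1% and 12%. With a match of 8 bases the shares were 20.4% and 12.2%, beside 15.5% and 14.2% for all 13158. The class of 18 genes, which includes Lin28a, gave 5 lower and 1 higher (27.8% and 5.56%), so its shares rest on few genes. The median UTR was 791 bases long in the class with no match and 2256 in that with at least 1, so the classes differ in length too, and these medians and shares are given as a description.

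Of 16 genes listed as typical of fetal tissue, 6 were tested and 3 of these were higher, namely Cdkn1c, an inhibitor of cyclin-dependent kinases (2.38 ± 0.463 to 30.7 ± 1.71 CPM, SD, n = 3 each; log2 fold change 3.69, adjusted p = 8.4e-05, edgeR), Afp, the fetal serum protein (0.128 ± 0.048 to 1.18 ± 0.244 CPM; 3.20, adjusted p = 0.00191), and Dlk1 (0.993 ± 0.483 to 8.36 ± 1.23 CPM; 3.07, adjusted p = 0.00186). For these small lists too the background was 13.7% higher and 13.8% lower of all genes. Bcl11a, which represses fetal globin, did not pass (-0.07). Of the embryonic globin genes, Hbb-y and Hba-x had 0 reads, and Hbb-bh1 had 3 in Rpl22+/+ and 1 in Rpl22-/-. Among 10 relatives of the members, Hmga1b and Trim3 (0.57, adjusted p = 0.0208, edgeR) were higher and Arid3b was lower, of 9 tested, and the call of Trim3 was lost with any of 4 libraries left out. The strip plot sets the lists side by side.

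**Figure D4:**
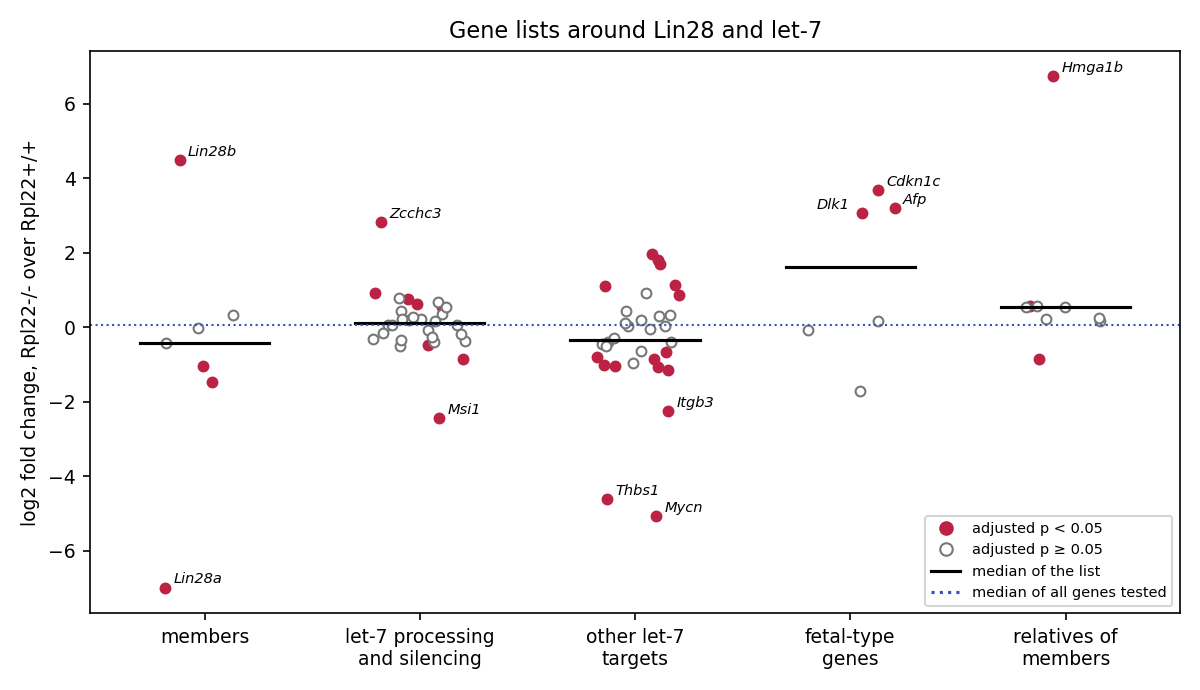
The log2 fold change of Rpl22-/- over Rpl22+/+ for the tested genes of 5 lists, red where the adjusted p-value was under 0.05, with the median of each list as a black line and that of all genes tested (0.07) as a dotted line. The let-7 processing list is centered near the dotted line (median 0.11), the list of other targets lies lower (-0.35), and both lists have genes on each side.

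The genes most like a member over the 6 libraries were found by Pearson's r of log2(CPM + 0.1). Lin28a was followed most closely by Bicdl2 (r = 0.9999), Gm18562 and Mmp25 (0.9997 each), Igf2bp3 by Cnr2 (0.9997), Tbcel and Pde2a, and Arid3a by Stab1 (0.9993), Tst and Cers5. Hmga1 was nearest to Akt1 (0.9993), Tmem203 and Aplp2, Dis3l2 to Clta (0.9994), Gnai2 and Capzb, and Igf2bp2 to Gm37226 (0.9942), Wdhd1 and Srcap. The number of genes above 0.95 was 1310 for Lin28a, 1346 for Igf2bp3, 1042 for Arid3a, 523 for Hmga1, 491 for Dis3l2 and 33 for Igf2bp2, and the 6 libraries fall into 2 groups, so these values are only a description.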

How the data were processed

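The authors isolated RNA of sorted CD11b+Gr1+ splenocytes, prepared stranded poly(A) libraries and used Trimmomatic for trimming and Salmon for quantification, per the labels and methods. Versions and transcript set are not given in the sources used here. Each library's file, as the authors deposited it, gives estimated counts for transcripts, and TPM, which is scaled for length and keeps no depth. Their table of the genotype comparison (fold changes and p-values) was used for GRCm39 positions only, and it has 0 columns of values per sample.

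Estimated counts and TPM were summed to genes by GENCODE vM21 identifiers, which matched 136036 of 276623 transcripts (49.2%) and 98.0% to 98.1% of reads. Counts were rounded, filtered with filterByExpr and tested with genotype as the only term in edgeR 4.0.16 (R 4.3.3) after TMM scaling. The SE is that implied by the F statistic. Transcripts were tested likewise. Tests were two-sided, and calls were made at a Benjamini-Hochberg adjusted p-value under 0.05. TPM was tested with limma 3.58.1. The 10 genes and the other gene lists were chosen with earlier results of these data known. Named besides the members are, from each list, the 3 genes with the largest change in each direction among those called, with Tut4, Tut7, Dicer1 and Drosha, coding neighbors within 100 kb and the 3 genes most like each member. Nras, Hras, Dgcr8, Bcl11a, the globin genes, hosts and markers were named after their values were seen, and 1 result on the target list is not reported here. Intervals and limits, with 3 reads allowed by a count of 0, cover counting error only.

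Same-numbered libraries deviated together from their group means, with correlations across genes of 0.57, 0.715 and 0.129 for numbers 1, 2 and 3. Each exceeded 0.1, so a fit with the replicate number as a block was set beside the others, although Rpl22+/+ replicate 3 correlated more with Rpl22-/- replicate 1 (0.43). Alternatives were DESeq2 size factors, no filter, the DESeq2 1.42.0 test, limma-voom, log2(TPM + 1), log2(TPM + 0.1), this block, a minimum fold of 2, each library left out, and, chosen after seeing the data, Hmga1 summed with Hmga1b. Figures were drawn with matplotlib 3.10.9.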

Additional observations from a re-analysis of the deposited data

How the results depend on the processing

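The calls of Lin28a and Igf2bp3 held under all 14 alternatives and the calls of Arid3a and Lin28b under 13 and 12. The count of members higher went from 1 to 0 with limma on log2(TPM + 1) and on log2(TPM + 0.1). In both this came through Lin28b, whose low TPM makes the added constant weigh heavily. With each library left out the count higher stayed at 1 (range 1 to 1) and the count lower at 3 (range 3 to 3). With log2(TPM + 0.1) the median over all genes tested moved from 0.07 to 0.19. Against a minimum fold of 2, whose null hypothesis is stricter, 2 genes of the let-7 processing list passed instead of 8, 3 of the target list instead of 16 and 5 member transcripts instead of 8, and Arid3a did not pass. Over all 16656 genes, 692 were higher and 613 lower in that test, instead of 2288 and 2306. With the replicate number as a block 5 member transcripts passed, no member gene's call changed, and the processing and target lists gave 9 and 19 genes. Over all genes the block gave 2943 higher and 2688 lower. Leaving out a library gave 4 to 16 genes of the processing list, 10 to 22 of the target list and 4 to 9 member transcripts, of which 4 came without Rpl22-/- replicate 1 and 5 without Rpl22+/+ replicate 3 or Rpl22-/- replicate 3. Among these fits the highest counts came without Rpl22+/+ replicate 2, over all genes as well (3540 higher and 3311 lower of 17127). Without Rpl22+/+ replicate 3 the counts over all genes were 1175 and 1447 of 17381, and the cause was not tested. The DESeq2 test called 12 member transcripts.

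Log2 fold changes that turned sign belonged to genes that did not pass. For Dis3l2 they were 0.021 with no filter, 0.030 with limma-voom, 0.10 and 0.12 with log2(TPM + 1) and log2(TPM + 0.1), 0.019 with the block, 0.22 without Rpl22+/+ replicate 2, and 0.047 and 0.0012 without Rpl22-/- replicate 1 and 3, within a range of -0.17 to 0.22 over the libraries left out. For Igf2bp2 the value was -0.030 without Rpl22-/- replicate 1, within a range of -0.030 to 0.56, and for Hmga1 it was 0.20 with Hmga1b summed. At 4 and 90 reads per genotype, depth limits Lin28b, and Igf2bp1, Hmga2 and Trim71 could not be compared.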
